A study of Mus musculus with 3 samples.

Results

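The cells described here are aortic adventitial fibroblasts in which at least 3 of 5 transcripts, Thbs4, Tnc, Ecrg4, Ndnf and Kcnma1, were found. They were chosen by a rule on measured values. A barcode had to hold at least 2000 UMIs (transcript molecules counted once each), at least 300 genes and at most 10% mitochondrial UMIs, with Col1a1, Col1a2, Dcn and Lum together making at least 1% of its UMIs and no UMI of Ptprc, the pan-leukocyte gene. The rule selected 2526 cells of 22682 fibroblasts (11.1%), which were themselves part of 36140 cells past the UMI, gene and mitochondrial filters. They are called gated cells below, and the 20156 fibroblasts with fewer of the markers are called the other fibroblasts.

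The study used 9 mice, 3 given saline (Vehicle), 3 given angiotensin II (AngII) and 3 given angiotensin II and access to a running wheel (AngII_VWR, voluntary wheel running). Each group is 1 library of droplet-based 3′ single-cell RNA sequencing made from peeled, enzyme-digested adventitia, so the mice of a group cannot be told apart and no difference between groups has a replicate check. Strain, sex, age, dose and duration are not given in the labels. With 1 library a group no test was run, intervals given with counts cover counting error only, and every comparison is a description of these libraries.

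The adventitia is the outer coat of an artery, and its fibroblasts make the collagen and proteoglycan sheath that thickens when blood pressure is raised. Angiotensin II, the effector peptide of the renin-angiotensin system, constricts vessels through its type 1 receptor and is given to rodents as a model of hypertension and vascular fibrosis. Under such stress part of the fibroblasts take up a matrix-producing state, while others keep the profile of Pi16- and Cd55-carrying cells, which are regarded as reserve fibroblasts of connective tissue. Thbs4 encodes thrombospondin 4 and Tnc tenascin C, secreted proteins that accumulate in injured and loaded connective tissue. Ndnf encodes a secreted neuron-derived neurotrophic factor with a fibronectin type III fold, Kcnma1 the pore-forming subunit of the large-conductance calcium-activated potassium channel, and Ecrg4 a secreted peptide precursor also known as augurin.

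In the mm10 build (GENCODE M21 gene models), Ecrg4 lies on chromosome 1 at 43730602 to 43742578 on the plus strand and Ndnf on chromosome 6 at 65671590 to 65712326 on the plus strand. On the minus strand lie Tnc on chromosome 4 at 63959785 to 64047015, Thbs4 on chromosome 13 at 92751590 to 92794818 and Kcnma1 on chromosome 14 at 23289431 to 24014491. The 250 bases upstream of the RefSeq transcript start (GRCm38.p6) are shown for 2 of the rule genes and for 2 matrix-related genes with high levels in gated cells, because these 4 windows hold letters of the motifs searched. Capitals mark matches, on either strand, to TGTGGT (RUNX factors), GGAATG (TEAD factors), TGANTCA (AP-1) or GGAAAA (NFAT), and each window reads 5′ to 3′ along the gene.
Ecrg4, chr1:43730352-43730601, plus strand: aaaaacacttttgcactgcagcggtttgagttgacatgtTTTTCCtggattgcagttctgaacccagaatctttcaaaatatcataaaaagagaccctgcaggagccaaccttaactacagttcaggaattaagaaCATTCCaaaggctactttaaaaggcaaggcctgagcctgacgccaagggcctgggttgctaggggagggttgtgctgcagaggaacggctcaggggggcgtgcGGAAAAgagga
Thbs4, chr13:92794819-92795068, minus strand: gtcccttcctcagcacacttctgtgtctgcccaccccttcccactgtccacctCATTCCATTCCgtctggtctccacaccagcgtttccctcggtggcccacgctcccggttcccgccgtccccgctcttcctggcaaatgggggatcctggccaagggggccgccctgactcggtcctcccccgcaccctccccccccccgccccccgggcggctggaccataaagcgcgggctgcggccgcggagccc
Igfbp3, chr11:7213924-7214173, minus strand: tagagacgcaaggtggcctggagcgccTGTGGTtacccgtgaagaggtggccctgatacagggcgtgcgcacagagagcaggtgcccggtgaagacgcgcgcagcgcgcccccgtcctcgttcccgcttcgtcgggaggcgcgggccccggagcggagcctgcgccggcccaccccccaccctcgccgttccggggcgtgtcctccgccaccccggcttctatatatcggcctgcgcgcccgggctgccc
Col8a1, chr16:57754738-57754987, minus strand: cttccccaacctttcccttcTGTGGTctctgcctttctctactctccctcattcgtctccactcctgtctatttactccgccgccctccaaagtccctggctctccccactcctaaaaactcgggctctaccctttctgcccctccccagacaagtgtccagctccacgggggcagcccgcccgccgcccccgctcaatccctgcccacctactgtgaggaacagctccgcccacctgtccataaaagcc
Ecrg4 held 1 TEAD and 2 NFAT words, Thbs4 2 TEAD words, and Igfbp3 and Col8a1 1 RUNX word each. The windows of Tnc and Kcnma1 held none of the 4 words. Among 27025 RefSeq upstream windows of this length, 14.2% held the RUNX word, 12.6% the TEAD word, 6.87% the AP-1 word and 20.6% the NFAT word, so these short words are common. A match is a description of the letters and not evidence that a factor binds.

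Gated cells were found in every library and differed widely in share. The rule found 59 of 6328 fibroblasts in Vehicle, which is 0.932% (exact Clopper-Pearson 95% interval 0.710 to 1.20). It found 1744 of 5966 in AngII, which is 29.2% (28.1 to 30.4), and 723 of 10388 in AngII_VWR, which is 6.96% (6.48 to 7.47). The share in AngII_VWR was thus 0.238 times that in AngII and 7.46 times that in Vehicle. AngII supplied 69.0% of all gated cells, AngII_VWR 28.6% and Vehicle 2.34%.

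The rule counts detected transcripts, so the depth of a cell matters to it. Median depths of gated cells were 20675 (Vehicle), 18024 (AngII) and 7196 UMIs (AngII_VWR), against 12204, 11687 and 5380 in the other fibroblasts. When every fibroblast was thinned to 2000 UMIs, 1 cell remained in Vehicle (0.0158%), 391 in AngII (6.55%, 5.94 to 7.21) and 188 in AngII_VWR (1.81%, 1.56 to 2.09). The ratio of AngII_VWR to AngII was then 0.276, and that of AngII_VWR to Vehicle was 115, against a single Vehicle cell. With 2 or 4 markers required in place of 3, the ratio of AngII_VWR to AngII was 0.413 or 0.120. As a measure of free RNA, Ptprc-positive cells below the fibroblast threshold met the marker rule in 7 of 2875 cells in Vehicle (0.243%), 4 of 2327 in AngII (0.172%) and 2 of 2730 in AngII_VWR (0.0733%), at median depths of 13711, 15379 and 6172 UMIs. None did after thinning, which allows shares of up to 0.104%, 0.129% and 0.110%. The Vehicle share is therefore above that of Ptprc-positive cells at full depth, but after thinning it rests on 1 cell.

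At the threshold, fibroblasts with exactly 2 markers numbered 344 in Vehicle, 1265 in AngII and 1440 in AngII_VWR. Those with exactly 3 numbered 55, 1024 and 572. In AngII, Kcnma1 was at 219 CPM (UMIs of the gene per 1000000 UMIs, summed over the cells) with 2 markers and at 456 with 3, Ecrg4 at 263 and 440, and Thbs4 at 11.1 and 68.3. Ndnf was at 50.03 CPM with 2 markers and 211 with 3. These levels follow from the rule.

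The gate was led by Ecrg4, Kcnma1 and Ndnf rather than by the 2 genes of its working name. Ecrg4 was found in 91.5% of gated cells in Vehicle, 98.0% in AngII and 93.8% in AngII_VWR. Kcnma1 was found in 88.1%, 96.3% and 96.1% of them, and Ndnf in 83.1%, 86.7% and 75.0%. Tnc was found in 37.3%, 39.0% and 33.2% and Thbs4 in 6.78%, 30.5% and 25.3%, in the same order of libraries. The combination of Ecrg4, Ndnf and Kcnma1 with neither Thbs4 nor Tnc made up 55.9% of gated cells in Vehicle, 42.1% in AngII and 47.3% in AngII_VWR. Both Thbs4 and Tnc were found in 11.6% of gated cells in AngII and 5.81% in AngII_VWR, and in 0 of 59 in Vehicle, which allows up to 5.08%. Ecrg4, Kcnma1 and Ndnf were thus each found in most gated cells, and Thbs4 or Tnc in part of them. These shares follow in part from the rule. In the other fibroblasts of AngII, Ecrg4 was found in 47.2%, Kcnma1 in 29.2%, Ndnf in 13.9%, Tnc in 3.03% and Thbs4 in 2.49%. In those of AngII_VWR, Ecrg4 was found in 26.7%, Kcnma1 in 23.4%, Ndnf in 7.098%, Tnc in 2.79% and Thbs4 in 1.52%. In both libraries, Ecrg4 and Kcnma1 were therefore also common outside the gate, while Thbs4 and Tnc were rare there.

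**Figure D1:**
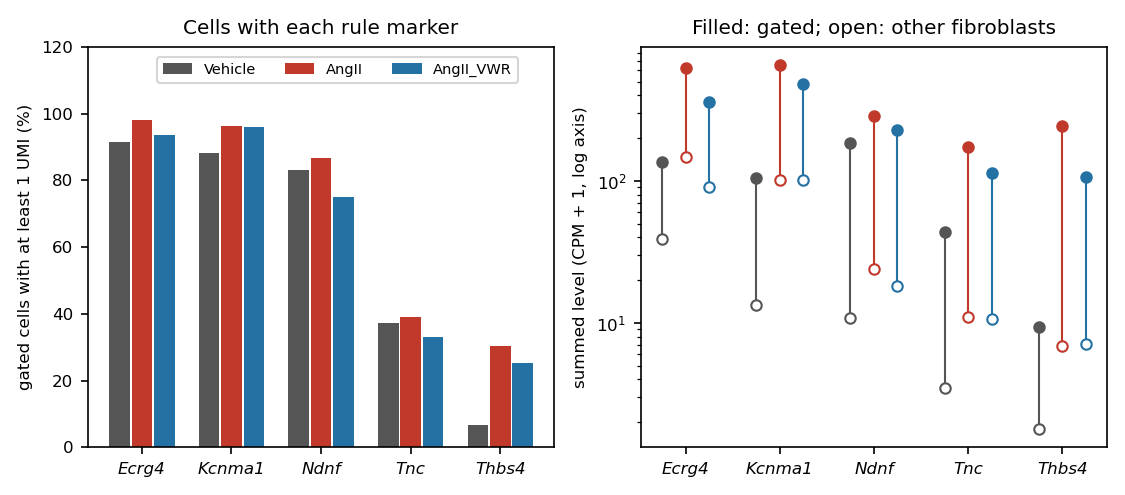
Left, percent of gated cells with at least 1 UMI of each rule marker in the 3 libraries. Right, summed level of each marker (CPM + 1, log axis) in gated cells (filled) and other fibroblasts (open). Ecrg4, Kcnma1 and Ndnf were found in 75.0% or more of the gated cells of each library and Thbs4 in 30.5% or fewer.

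The levels of the 5 markers in gated cells were highest in AngII. Thbs4 was at 8.36 CPM in Vehicle, 241 in AngII and 106 in AngII_VWR, while the other fibroblasts held 0.779, 5.86 and 6.11 CPM. Thbs4 was also unevenly spread, with a median of 4 UMIs per gated cell in which it was found and a highest value of 364 UMIs in AngII. Tnc was at 42.6, 172 and 112 CPM, Ecrg4 at 135, 623 and 357, Ndnf at 182, 287 and 227, and Kcnma1 at 104, 651 and 477. For all 5, AngII_VWR lay between Vehicle and AngII. These values were used by the rule and describe the selection only. In Ptprc-positive cells each marker was at 9.42 CPM or below in all libraries. In those of Vehicle, Tnc was at 5.86 CPM, against 2.48 in the other fibroblasts, Ndnf at 7.77 against 9.78 and Kcnma1 at 8.72 against 12.4. Thbs4 was at 0.0472 CPM against 0.779 and Ecrg4 at 0.968 against 37.8.

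The markers occurred together in the AngII libraries at equal depth. After thinning to 2000 UMIs, Ecrg4 was found in 46.3% of AngII fibroblasts with Kcnma1 and in 25.4% of those without it. Ndnf was found in 24.5% and 8.61%, Tnc in 11.9% and 2.61%, and Thbs4 in 11.5% and 2.72% of the same groups. In AngII_VWR the corresponding values were 28.4% and 14.1% for Ecrg4, 12.3% and 3.96% for Ndnf and 4.92% and 1.63% for Tnc. In Vehicle the pairs were few and varied. Ecrg4 was found in 5.04% of 139 fibroblasts with Kcnma1 and in 7.84% of those without, whereas Tnc was found in 2.88% and 0.372% of them. Ecrg4 was found in 16.8% of 131 Vehicle fibroblasts with Ndnf and in 7.58% of those without.

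The rule itself required fibroblast genes, so their level is a description only. The gated cells carried all 12 markers of a fibroblast list that includes genes of the rule, with summed levels of 50661 CPM in Vehicle, 74311 in AngII and 57429 in AngII_VWR, against 48970, 58707 and 49881 in the other fibroblasts. Col1a1, Col1a2, Dcn and Lum had a median share of 2.73%, 4.67% and 3.43% of UMIs in gated cells. Of 6 mesothelial markers, Msln, Upk3b, Lrrn4 and Upk1b were at 0 in the gated cells of all libraries, while Wt1 was at 6.70 CPM in AngII and 2.02 in AngII_VWR and Krt19 at 0.168 CPM or less. T and B cell markers summed to 2.36 CPM or less. Macrophage markers summed to 517 CPM in Vehicle, 223 in AngII and 677 in AngII_VWR, against 261, 275 and 736 in the other fibroblasts. In the 59 Vehicle cells, smooth muscle markers summed to 2317 CPM (479 in the other fibroblasts) with Acta2 at 1057 and Tagln at 681, and red cell transcripts to 6373 CPM (2349). The smooth muscle sums were 392.4 CPM in gated and 205 in other fibroblasts of AngII and 303 and 311 in AngII_VWR. The red cell sums were 464 and 765 CPM in AngII and 418 and 239 in AngII_VWR. Pericyte markers summed to 492 CPM in gated and 280 in other fibroblasts of Vehicle, 251 and 328 in AngII, and 334 and 428 in AngII_VWR. Endothelial markers summed to 76.1 and 14.8, 12.5 and 20.3, and 64.1 and 40.04 CPM. Without the 10 Vehicle cells of a cluster led by smooth muscle genes, described next, the smooth muscle sum of the Vehicle gated cells was 354 CPM. Each pair of libraries shared between 44 and 80 barcodes, and 1 of these was gated in both AngII and AngII_VWR.

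A clustering of the fibroblasts of each library without the 5 rule genes, done after the values had been seen, placed most gated cells together in the AngII libraries. In AngII, 1 cluster of 1627 fibroblasts held 65.1% of the gated cells, and 69.8% of that cluster was gated. Its leading genes were Scg2, Rrad, Igfbp3, Tnmd, Ddah1 and Epyc. In AngII_VWR, 1 cluster of 1598 fibroblasts held 64.0% of the gated cells, but only 29.0% of it was gated. Its leading genes were Igfbp3, Edn1, Rgs7, Pde4c, Gfra1 and Sfrp1. In Vehicle no cluster held more than 33.9% of the gated cells, and 10 of the 59 lay in a cluster led by Tagln, Myocd and Myh11, genes of smooth muscle. The remaining gated cells of AngII were spread over 6 other clusters, none with more than 10.7% of them.

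Gated cells had higher levels of type VIII collagen, Igfbp3 and several Wnt inhibitors, and lower levels of Igfbp5 and of reserve-fibroblast genes, than the other fibroblasts of their library. These differences come from the cells that the rule sorted and are descriptions with no test. Of 6305 genes measured in both AngII libraries (at least 20 CPM and 10 UMIs in the higher group), 38 (0.603%) were at least 2-fold higher in gated cells in both libraries and 63 (0.999%) at least 2-fold lower. The ratios were of summed CPM plus a pseudocount of 1, and the median log2 ratio over all genes measured was -0.09 in AngII and -0.05 in AngII_VWR.

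Igfbp3, which encodes a carrier of insulin-like growth factors, was at 136.5 CPM in gated and 22.8 in other fibroblasts of AngII, a ratio of 5.99 (95% interval 5.62 to 6.39). In AngII_VWR it was at 173 and 44.7 CPM, a ratio of 3.86 (3.59 to 4.15). In Vehicle it was at 3.34 and 4.95 CPM, with an interval of the ratio from 0.183 to 1.74. Igfbp3 was thus higher in the gated cells of both AngII libraries and at 4.95 CPM or less in both Vehicle groups. It was not confined to the gate. In AngII_VWR, 1026 of its UMIs were in gated cells and 2701 in the other fibroblasts. The AngII_VWR cluster with most gated cells, of which 29.0% was gated, had Igfbp3 at 238 CPM. In that cluster Col8a1 was at 1007, Sfrp1 at 1459 and Piezo2 at 412 CPM, all above their levels in gated cells. A Vehicle cluster of 767 fibroblasts, 20 of them gated, had Igfbp3 at 23.6 CPM.

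Col8a1 and Col8a2 encode the chains of type VIII collagen, a network-forming collagen of vessel walls. Col8a1 was at 276 CPM in gated and 60.5 in other fibroblasts of Vehicle, 1081 and 261 in AngII, and 963 and 302 in AngII_VWR. Its ratios were 4.56 (4.07 to 5.10), 4.14 (4.06 to 4.22) and 3.19 (3.09 to 3.28). Col8a2 was at 27.6 and 12.8, 50.4 and 11.3, and 62.1 and 18.1 CPM in the same order. Both chains were higher in the gated cells of every library.

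Gfra1, the co-receptor of glial cell line-derived neurotrophic factor, was at 79.8 CPM in gated and 15.9 in other fibroblasts of AngII and at 60.1 and 15.2 in AngII_VWR. Sfrp1, a secreted Wnt antagonist, was at 631 and 198 CPM in Vehicle, 882 and 342 in AngII and 1334 and 410 in AngII_VWR. Piezo2, a stretch-gated ion channel, was at 140 and 28.5, 362 and 109, and 388 and 142 CPM. Sfrp1 and Piezo2 were higher in gated cells in all libraries and highest in AngII_VWR. Gfra1 was higher in the gated cells of both AngII libraries. In Vehicle it had 9 UMIs in gated cells (7.52 CPM, against 1.07 in the others), too few to compare. Angptl1, an angiopoietin-related secreted protein, was at 627 and 208 CPM in AngII and 509 and 178 in AngII_VWR. C1qtnf3, a secreted C1q/TNF-related protein, had log2 ratios of 1.66 and 1.61, and Cpxm2, a carboxypeptidase-like secreted protein, of 1.40 and 1.36. Smim3, Sntg2 and Tanc2 completed the 12 leading genes, with log2 ratios from 1.33 to 1.69.

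The lowest genes in gated cells were Hhip and Igfbp5. Hhip, which encodes a decoy receptor of hedgehog ligands, was at 8.08 CPM in gated and 50.2 in other fibroblasts of AngII and at 6.90 and 62.4 in AngII_VWR. Igfbp5, another insulin-like growth factor binder, was at 798 and 3018 CPM in Vehicle, 303 and 1549 in AngII, and 468 and 2378 in AngII_VWR. It was 3.78-fold lower in the gated cells of Vehicle and 5.10-fold and 5.08-fold lower in those of AngII and AngII_VWR. The 2 insulin-like growth factor binders therefore ran in opposite directions in the AngII libraries.

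Cd55, a complement-regulating surface protein of reserve fibroblasts, was at 75.2 and 431 CPM in Vehicle, 45.8 and 213 in AngII and 38.2 and 144 in AngII_VWR. Cd248, a surface glycoprotein of fibroblasts and pericytes, had log2 ratios of -1.70, -1.92 and -1.74, and Sema3c, a secreted guidance protein, of -1.56, -2.36 and -1.55. Rbp4, the plasma retinol carrier, was at 143 and 518 CPM in AngII and 113 and 481 in AngII_VWR, but at 341 and 327 in Vehicle. Rbp4 led an AngII cluster of 1542 fibroblasts, of which 6.16% was gated. The median depth of that cluster was 5890 UMIs, against 16660 in the cluster with most gated cells. The part of depth in the Rbp4 values was not tested. Ugdh, which makes UDP-glucuronate for proteoglycans and hyaluronan, was at 412 and 1249 CPM in AngII and 335 and 1006 in AngII_VWR. Mustn1, Tmtc2, Opcml, Arhgef28 and Gas7 completed the 12 lowest, with log2 ratios between -1.49 and -1.88.

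Of the 38 higher genes, 24 reached 20 CPM in the higher group of Vehicle. Low genes could reach it there through the gated cells alone, and Igfbp3 did not reach it, so the direction of these 24 is not counted. All 63 lower genes were measured in Vehicle, where they could reach 20 CPM through the other fibroblasts alone. Their direction is not counted either. The median log2 ratio in Vehicle over the 6305 genes was -0.04. The Vehicle values rest on 59 cells with 1196169 UMIs, against 34014565 UMIs for AngII and 5943656 for AngII_VWR.

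**Figure D2:**
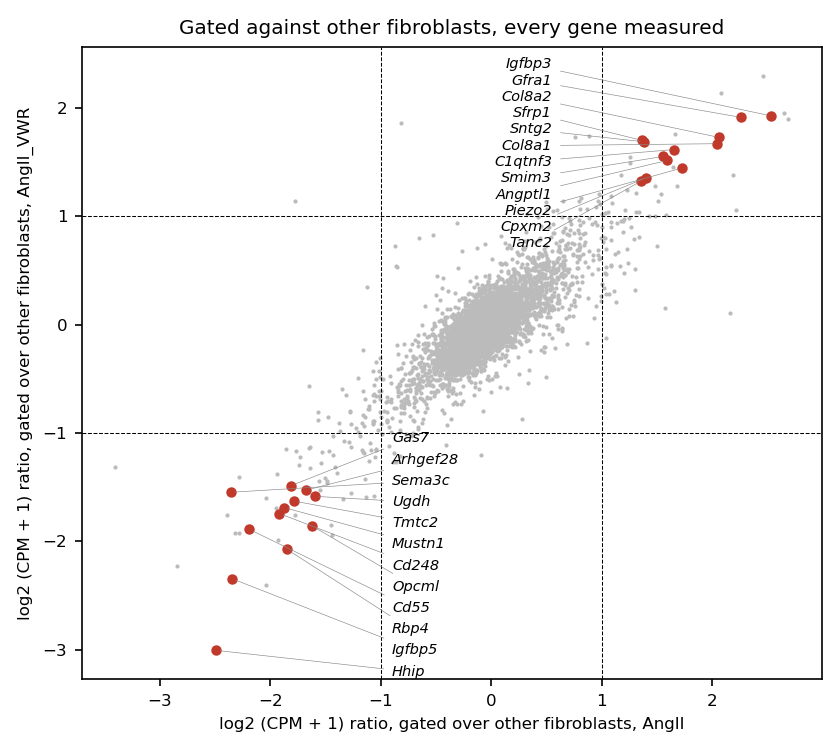
Each grey point is a gene, with its log2 (CPM + 1) ratio of gated over other fibroblasts in AngII (x axis) and AngII_VWR (y axis). Dashed lines mark a 2-fold difference. The 24 named genes (red) lie past it in both libraries, from Igfbp3 and Gfra1 at the top right to Hhip and Igfbp5 at the bottom left.

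The gene lists showed which parts of the matrix program went with the gate. At a 1.5-fold difference in both AngII libraries, 139 of 6305 genes (2.2%) were higher in gated cells and 172 (2.73%) lower. Of 20 genes of an activated fibroblast matrix list, 14 were measured, 8 were 1.5-fold higher and 0 lower, with median log2 ratios of 1.00 in Vehicle, 0.93 in AngII and 0.64 in AngII_VWR. Those 8 members are Cthrc1, Comp, Col8a1, Col8a2, Col12a1, Col11a1, Ltbp2 and Mfap4. Of the 14, 11 were higher in both AngII libraries and 1 was lower in both, by less than 1.5-fold. Postn (periostin) is not among the 8. In AngII it was at 436 CPM in the cluster with most gated cells. In a cluster led by Pla1a, Cxcl9 and Limch1 it was at 1000 CPM. In AngII_VWR it was at 153 CPM in the cluster with most gated cells and 590 in a cluster led by Sema3e, Efhd1 and Cd55. Cthrc1, a secreted protein of injury fibroblasts, was at 361 and 112 CPM in AngII and 216 and 88.4 in AngII_VWR. Col11a1, a minor fibrillar collagen chain, was at 50.5 and 7.22 CPM and at 41.4 and 9.94, and in Vehicle it had 0 UMIs in gated cells, which allows up to 2.51 CPM. Fibrillar collagens and their crosslinking enzymes differed less. Of 17 measured, only Lox was 1.5-fold higher and only Pcolce2 lower, with medians of 0.22 in AngII and 0.14 in AngII_VWR. Lox, the enzyme that crosslinks collagen and elastin, was at 625 and 271 CPM in AngII and at 650 and 330 in AngII_VWR.

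Reserve-fibroblast genes were lower as a list. Of 17, 13 were measured, all 13 had lower levels in the gated cells of both AngII libraries and 10 were 1.5-fold lower, with medians of -1.64 in AngII, -1.32 in AngII_VWR and -1.14 in Vehicle. When fibroblasts had to hold 3% of the 4 fibroblast genes, the medians were -0.61 in AngII and -0.32 in AngII_VWR. Pi16, a peptidase inhibitor that marks these cells, was at 1023 and 2275 CPM in AngII and 701 and 1595 in AngII_VWR. Efhd1 and Smpd3 were below 9 CPM in the gated cells of both libraries, with log2 ratios of -2.85 and -2.22 for Efhd1 and -2.32 and -1.92 for Smpd3.

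Among relatives of the 2 matricellular rule genes, Thbs1 had log2 ratios of 1.08 in AngII and 1.19 in AngII_VWR, Thbs2 of 0.95 and 0.92, and Comp (thrombospondin 5) of 0.96 and 0.64. Tnxb, the tenascin of elastic skin and vessels, went the other way at -0.97 and -0.79. Of 9 Wnt ligands and inhibitors measured, the inhibitors Sfrp1, Sfrp2, Dkk2 and Frzb were 1.5-fold higher and the ligand Wnt2 lower. Of 9 neurotrophic and guidance genes measured, Slit2 was higher and Sema3c, Slit3 and Ntn1 were lower. Of 15 elastic fibre genes, Mfap2, Mfap4 and Ltbp2 were higher and Fbn1, Emilin2 and Ltbp4 lower. Of 15 cytokines and chemokines measured, 0 were higher and Cxcl12 and Ccl11 were lower. Of 17 contractile and cytoskeletal genes only Palld, an actin-bundling protein, was higher in both libraries. Tagln, a marker of contractile cells, had a log2 ratio of 2.16 in AngII and 0.10 in AngII_VWR. Runx1, a transcription factor of the RUNX family, was at 351 and 151 CPM in AngII and 355 and 170 in AngII_VWR. It was looked up after its value had been seen.

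**Figure D3:**
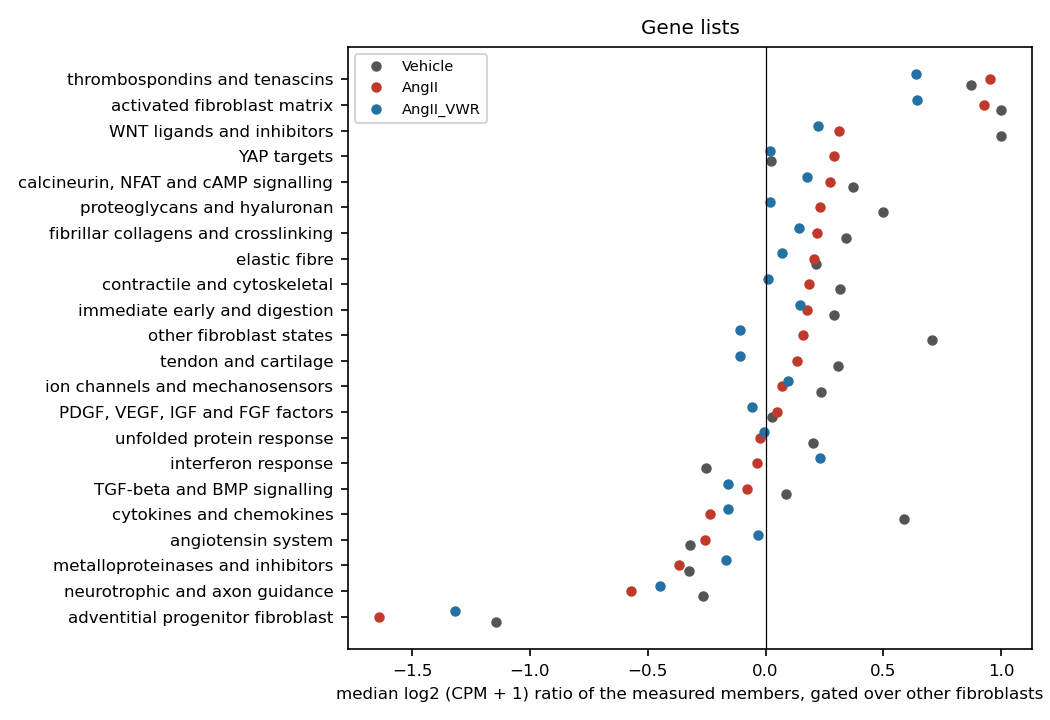
Median log2 (CPM + 1) ratio of gated over other fibroblasts for the measured members of each gene list with at least 3 of them, in the 3 libraries. The activated matrix and thrombospondin lists lie to the right and the adventitial progenitor list, which holds the reserve-fibroblast genes, to the left in all libraries.

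Receptors of angiotensin were sparse in the gated cells. Agtr1a, the main type 1 receptor of rodents, was at 1.67 CPM in Vehicle (2 UMIs), 5.64 in AngII and 6.23 in AngII_VWR, against 7.39, 5.19 and 3.43 in the other fibroblasts. Agtr1b was at 0.836, 1.65 and 0.841 CPM and Agtr2 at 0, 0.617 and 0.505. None reached the 20 CPM at which genes were compared. Ace, the enzyme that makes angiotensin II, was measured at 150, 167 and 138 CPM in gated cells and 192, 194 and 158 in the others.

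The difference followed the number of markers found, at a fixed depth of 2000 UMIs per cell. In AngII, Col8a1 was at 238 CPM in fibroblasts with no marker, 462 with 1, 950 with 2 and 1701 with 3 or more. Igfbp5 went from 1473 to 648, 252 and 127 CPM over the same steps. In AngII_VWR, Col8a1 went from 244 to 494, 821 and 1609 CPM and Igfbp5 from 2508 to 1137, 430 and 269. The sum of the activated matrix list went from 14797 to 21501 CPM in AngII and from 10746 to 13120 in AngII_VWR, while the progenitor list went from 7088 to 2639 and from 5614 to 2527. Levels of Col8a1 and Igfbp5 thus differed at each step, but both genes were named from the gated cells of these same libraries. The steps also count the rule's own markers. In AngII, 391 cells held 3 or more markers after thinning, against 1744 at full depth, so most gated cells lie in the lower steps. The steps are a description and cannot show whether the difference is gradual or comes from a mix of 2 groups. Il6 showed another pattern, at 511, 673, 774 and 760 CPM in AngII and at 68.3, 97.5, 102 and 74.5 in AngII_VWR, so that its level differed more between the libraries than between marker counts.

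**Figure D4:**
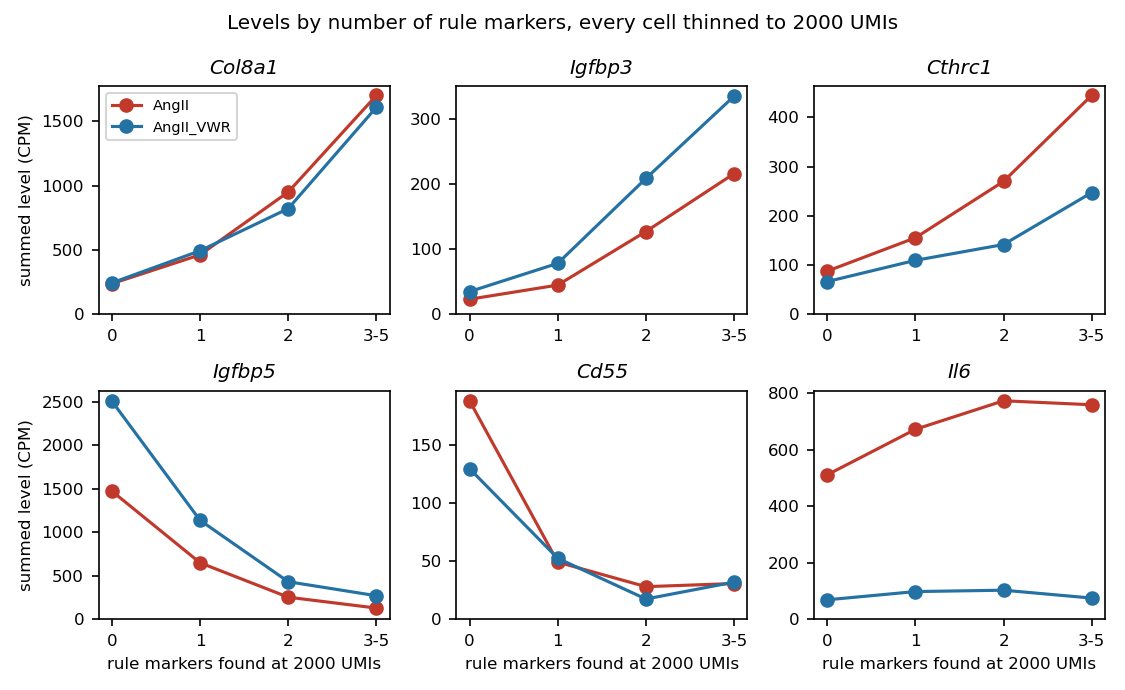
Summed level (CPM) of 6 genes in fibroblasts thinned to 2000 UMIs, by the number of rule markers found in the cell, in AngII (red) and AngII_VWR (blue). Col8a1, Igfbp3 and Cthrc1 were higher and Igfbp5 and Cd55 lower in cells with 3 or more markers than in cells with none.

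Within the gate, cells were split by Thbs4 and, separately, by Tnc, both genes of the rule, so these values are descriptions. Cells with Thbs4 were not compared with cells with Tnc, and 202 gated cells of AngII carried both. In the 2 AngII libraries, 6 genes of 6138 measured (0.0978%) were at least 2-fold higher in the gated cells with Thbs4 than in those without it, and 12 (0.196%) at least 2-fold lower. The 6 were Dkk2, Rerg, Cilp, Scg2, Slc24a3 and Cmya5. Dkk2, a Wnt modulator, was at 101 CPM with Thbs4 and 23.8 without in AngII and at 95.2 and 31.2 in AngII_VWR. Cilp, a cartilage intermediate layer protein, was at 548 and 194 CPM and at 830 and 388. Lower genes included Mmp3, a matrix metalloproteinase, at 162 and 534 CPM in AngII and 508 and 1449 in AngII_VWR, and the chemokine gene Cxcl12, at 83.6 and 230 and at 171 and 377. The split compared 532 with 1212 cells in AngII and 183 with 540 in AngII_VWR, with median depths of 17915 and 18057 UMIs and of 6539 and 7430.

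For Tnc, 3 genes of 6120 (0.049%) were at least 2-fold higher in the gated cells with it, Kif26b, Tcim and Ccn3, and 0 (0%) were lower. Ccn3, a matricellular protein, was at 540 CPM with Tnc and 162 without in AngII and at 180 and 86.3 in AngII_VWR. The contractile genes Tagln and Acta2 were past 2-fold in AngII alone, Tagln at 250 and 48.4 CPM and Acta2 at 178 and 61.2, with 97.7 and 50.1 and 147 and 77.3 in AngII_VWR. Cells with Tnc had a median of 19505 UMIs in AngII against 17060 without, and 7754 against 6993 in AngII_VWR.

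Between the 2 libraries given angiotensin II, the gated cells of AngII_VWR had lower levels of Il6 and other cytokine genes and of Nfatc2 and Rrad, and higher levels of part of the unfolded protein response genes, than those of AngII. Of 6818 genes measured, 161 (2.36%) passed 2-fold upwards in AngII_VWR and 134 (1.97%) downwards. The median over all genes was 0.12 on the log2 scale. Of 10 macrophage markers 6 were among the 161, namely C1qa, C1qb, C1qc, Csf1r, Mrc1 and Lyz2, and the macrophage sum was 223 CPM in AngII and 677 in AngII_VWR. Without the clusters led by macrophage or smooth muscle genes, 157 genes were higher and 137 lower. The called genes were also looked up in the other fibroblasts. Of the 161 higher genes, 140 were measured in the other fibroblasts, where 95 were also at least 2-fold and 128 at least 1.5-fold higher. Of the 134 lower genes, 114 were measured there, where 66 were at least 2-fold and 102 at least 1.5-fold lower. Low genes could be measured there through the higher library alone, so these counts are descriptions. No share over all genes of the other fibroblasts stands beside them. The median log2 ratio of the 6818 genes in the other fibroblasts was 0.08. The 2 libraries were also counted with different versions of Cell Ranger, and its part in these values was not tested.

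Il6, the gene of interleukin 6, was at 761 CPM in the gated cells of AngII and 94.6 in those of AngII_VWR, 8.05-fold lower (7.41 to 8.77), and at 260 in Vehicle. In the other fibroblasts it was at 525 and 79.3 CPM, 6.61-fold lower. Gbp5, an interferon-induced GTPase, was at 85.9 and 2.36 CPM, and the interferon-induced chemokine gene Cxcl10 at 88.2 and 5.72. Both were also more than 10-fold lower in the other fibroblasts and at log2 ratios of -2.74 and -2.47 in Ptprc-positive cells. Of 15 cytokine and chemokine genes measured, 6 were 1.5-fold lower in gated cells of AngII_VWR and 2 higher, against 5.71% and 9.11% of all genes (389 and 621). The 6 were Il6, Cxcl1, Ccl2, Ccl7, Ccl19 and Ptgs2, and the 2 higher were Cxcl12 and Cxcl14. Cxcl14 was at 25.3 and 68.6 CPM in gated cells and at 47.1 and 41.2 in the others. The median log2 ratio of the list was -0.40 in gated cells and -0.29 in the other fibroblasts. With no minimum CPM it was -0.14 in gated cells. Of 21 immediate early genes, 8 were lower and 0 higher, with Socs3 at 877 and 169 CPM. Genes of this list also respond to tissue digestion.

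Nfatc2, a calcineurin-dependent transcription factor, was at 210 CPM in gated cells of AngII and 21.0 in AngII_VWR, 10.0-fold lower (8.38 to 12.03), and 5.10-fold lower in the other fibroblasts. Rrad, a small GTPase that restrains calcium channels, was at 197 and 21.4 CPM and 9.20-fold lower (7.72 to 11.1), against 4.28-fold in the others. Tnmd, tenomodulin, a membrane protein of tendon cells, was at 81.4 and 8.58 CPM and 9.49-fold lower (7.19 to 12.8), against 2.73-fold. Dbp, a clock-controlled transcription factor, was at 149 and 15.5 CPM, and Rnd1 and Itpkc had log2 ratios of -3.69 and -3.34. In Ptprc-positive cells Nfatc2 and Rrad had log2 ratios of 0.32 and 0.43, and Tnmd was too low to compare, at 0.502 CPM in AngII and 0.523 in AngII_VWR. Of 19 genes of the calcineurin, NFAT and cAMP list, 6 were 1.5-fold lower in gated cells of AngII_VWR and 1 higher, with a median log2 ratio of -0.12.

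Higher in AngII_VWR were genes of the unfolded protein response, 8 of 16 measured at 1.5-fold and 0 lower, with a median log2 ratio of 0.58 in gated cells, 0.56 in the other fibroblasts and 0.77 in Ptprc-positive cells. Sdf2l1, a chaperone cofactor of the endoplasmic reticulum, was at 27.3 CPM in AngII, 108 in AngII_VWR and 97.0 in Vehicle, and Manf, a secreted stress factor, at 236, 556 and 517. For these genes AngII was thus the low library and AngII_VWR close to Vehicle. Spp1, osteopontin, was at 2.70 and 62.8 CPM, although it was found in 3.18% of the gated cells of AngII_VWR. Iqcn, Ppm1n, Pde4c, Polg2, Nabp1 and Nfe2l3 were between 2.59 and 10.3 CPM in AngII and between 53.8 and 125 in AngII_VWR, and had log2 ratios of 2.54 to 3.92 in the other fibroblasts and 0.61 to 3.35 in Ptprc-positive cells. Saa3, an acute-phase protein, was at 31.7 and 507 CPM but was found in 5.95% of the gated cells of AngII_VWR. Without a cluster of 174 fibroblasts led by Saa3, which held 22 gated cells, it was at 5.65 CPM in AngII_VWR and its log2 ratio was -2.30.

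**Figure D5:**
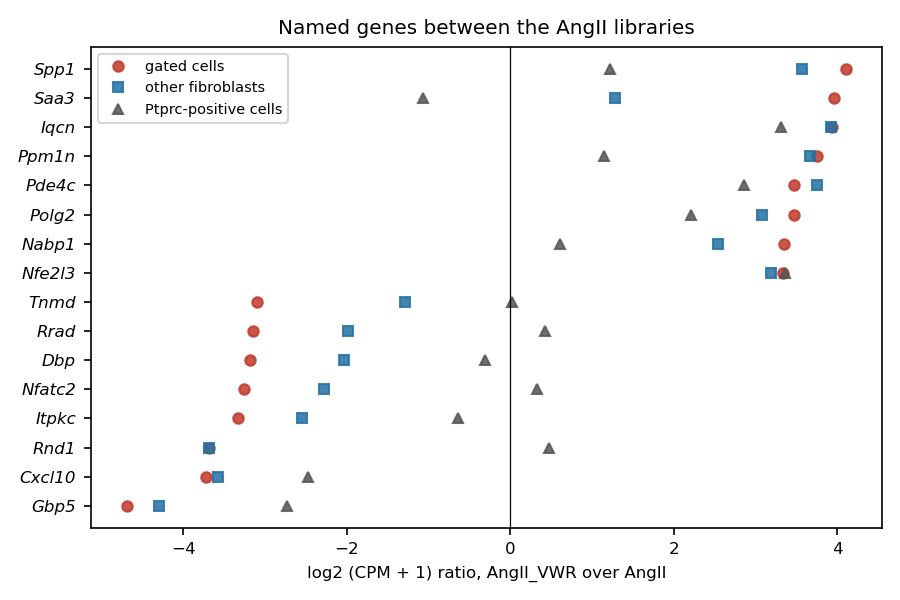
Log2 (CPM + 1) ratio of AngII_VWR over AngII for the 16 named genes in gated cells (circles), other fibroblasts (squares) and Ptprc-positive cells (triangles). Gbp5 and Cxcl10 were lower in all 3 populations, while Nfatc2 and Rrad were lower in fibroblasts and at 0.32 and 0.43 in Ptprc-positive cells, where Tnmd was below 1 CPM.

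Part of the activated matrix list was lower in AngII_VWR. Of 17 activated matrix genes measured, 8 were 1.5-fold lower and Spp1 was higher, with a median log2 ratio of -0.50, against -0.14 in the other fibroblasts. Among the 8 members that were higher in gated than in other fibroblasts, 3 were lower in AngII_VWR, namely Comp, Cthrc1 and Mfap4. Comp was at 888 CPM in Vehicle, 1913 in AngII and 1006 in AngII_VWR, 1.90-fold lower (1.85 to 1.95) than in AngII. Cthrc1 was at 41.8, 361 and 216 CPM and Postn, periostin, at 129, 640 and 366. Col8a1 was at 276, 1081 and 963 CPM, and Igfbp3 at 3.34, 136.5 and 173, so these 2 leading genes of the gate did not follow the lower level of Comp and Cthrc1. The genes that were lowest in the gated cells relative to the other fibroblasts in this comparison were Tagln and Ccn3, chosen after their values were seen. Tagln was at 134 CPM in AngII and 68.3 in AngII_VWR in gated cells and at 29.2 and 63.5 in the others. Ccn3 was at 323 and 122 CPM in gated cells and at 108 and 110 in the others. Tagln was found in 34.8% of gated cells in AngII and 23.7% in AngII_VWR, and Ccn3 in 43.9% and 27.0%, at a lower depth in the latter library.

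Against Vehicle, the gated cells of AngII had 218 of 6769 genes (3.22%) past 2-fold upwards and 211 (3.12%) downwards. This comparison shares the AngII library with the one above. Of 16 activated matrix genes measured, 8 were at least 2-fold higher and 0 lower, with a median log2 ratio of 1.02 (0.84 in the other fibroblasts). Of 13 progenitor genes, 7 were at least 2-fold lower, with a median of -1.08, and of 16 unfolded protein response genes, 6 were lower, with a median of -0.82. Of the contractile genes, 5 were lower, with Acta2 at 1057 CPM in Vehicle and 111 in AngII. Without the clusters led by macrophage or smooth muscle genes, 49 Vehicle cells remained, Acta2 was at 151 CPM in them and the median of the contractile list went from -0.41 to 0.41. The medians of the other 3 lists were then 0.82, -1.06 and -0.86.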

How the data were processed

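The authors' deposited matrices hold raw UMI counts per gene and barcode, which per the file headers came from Cell Ranger, version 7.1.0 for AngII_VWR and 7.0.1 for the remaining libraries, on mm10 per the submitters' processing notes. Whether intronic reads were counted is not given in the sources used here. Vehicle, AngII and AngII_VWR held 165977330, 141570158 and 105679209 UMIs in 15093, 10515 and 19633 barcodes.

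From these counts, UMIs were summed over cells, scaled to 1000000 (CPM) and compared as log2 ratios with a pseudocount of 1 CPM (Python 3.11.15, scipy 1.17.1). A call needed a 2-fold difference (1.5-fold in lists), 20 CPM and 10 UMIs in the higher group. Genes named by rank had 50 CPM and 30 UMIs and were not mitochondrial, ribosomal, haemoglobin, immunoglobulin or numbered model genes: the 12 highest and 12 lowest in gated cells by the smaller ratio of the AngII libraries, the 8 highest and 8 lowest between these, up to 4 of the largest differences per gene list, the 5 rule markers and the angiotensin receptors. Other members are named from the counts of their list, and Runx1, Acta2, Ccn3 and the genes of the Thbs4 and Tnc splits were chosen after their values were seen. The members and lists were chosen with earlier results of these data known. Intervals of shares are exact Clopper-Pearson, and of ratios exact conditional, at 95%. Limits for a count of 0 use 3 counts. UMIs count molecules, but intervals and limits cover counting error only.

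Doublets were kept. Scrublet (scanpy 1.11.5) scores removed 1103, 667 and 1864 cells as an alternative, at 0.8% per 1000 cells. Its own threshold was not used, because it called 2 of 15265 cells in AngII_VWR and so did not work there. In Vehicle, 12 gated cells (20.3%) were removed, against 9.83% of the other fibroblasts. The shares of gated and other fibroblasts were 9.00% and 6.42% in AngII and 11.6% and 12.0% in AngII_VWR. Clustering (leidenalg 0.10.2, 1500 variable genes, 20 components, resolution 0.5) was added after the values were seen. The calculation of ratios and intervals over many genes was checked on simulated counts for gated against other fibroblasts of AngII. The other comparisons, the list medians and the clusters were not simulated. A result for 1 gene is not reported here.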

Additional observations from a re-analysis of the deposited data

Results flagged for a closer look

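Several genes had opposite directions between gated and other fibroblasts in Vehicle and in the 2 AngII libraries, with the counting interval of each ratio excluding 1. The differences between libraries were not tested, and the Vehicle values rest on 59 cells. Of these cells, 10 lay in the Vehicle cluster led by smooth muscle genes, and the ratios below were not computed without it. Log2 ratios of gated over other fibroblasts in Vehicle, AngII and AngII_VWR were 1.29, -1.77 and -1.75 for Smoc1, a matricellular calcium-binding protein, and 1.11, -0.43 and -0.41 for the Wnt modulator gene Sfrp4. They were 1.22, -0.20 and -0.08 for Mmp3 and 0.70, -0.94 and -1.38 for Dio2, which activates thyroid hormone. The cyclin gene Ccnd1 had 0.49, -0.86 and -1.27, the filamin gene Flna 0.38, -0.53 and -0.40, Igfbp7 0.26, -0.47 and -0.50, and Gdf10 0.36, -0.38 and -0.51. The chemokine genes Ccl2 and Ccl7 had 0.45, -0.86 and -0.19 and 0.49, -0.34 and -0.16. The heat shock genes Hspa1a and Hspa1b had 0.43, -0.61 and -0.36 and 0.17, -0.85 and -0.66.

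For 2 named genes the ratio of AngII_VWR over AngII was at least 1.5-fold in opposite directions in gated cells and in the other fibroblasts, also untested between them. Tagln had a log2 ratio of -0.96 in gated cells and 1.10 in the others. Limch1, an actin-binding protein of the progenitor list, had 1.25 and -0.85. It was at 4.17 and 11.3 CPM in gated cells, below the 20 CPM needed for a call, a minimum not applied to these flags.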

How the results depend on the processing

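All alternatives kept the order of the shares, lowest in Vehicle and highest in AngII, with the ratio of AngII_VWR to AngII between 0.120 and 0.413. The shares in AngII and AngII_VWR were 50.4% and 20.8% with 2 markers required, 12.1% and 1.45% with 4, 33.5% and 9.93% from 5000 UMIs, 6.55% and 1.81% at 2000 UMIs, and 41.4% and 12.6% with fibroblast genes at 3% of UMIs. Genes 2-fold lower in gated cells numbered 41 with 2 markers, 26 with fibroblast genes at 3% and 99 at 2000 UMIs. At 2000 UMIs, 517 genes were 2-fold higher and 444 lower in AngII_VWR than in AngII, where few cells and shallow sums remain. With no minimum CPM the counts were 90 higher and 146 lower in gated cells and 737 higher and 264 lower in AngII_VWR, since more genes were compared. A pseudocount of 10 CPM gave 106 higher in AngII_VWR. In the 46 other checks of these shares and counts, values stayed within the interval of the share or 1.5 times the count. Of the 38 higher genes in gated cells, 38 remained without the highest Scrublet scores and 29 at 2000 UMIs, and of the 63 lower, 63 and 54. With 2 markers 24 and 39 remained, and with fibroblast genes at 3% 20 and 18. Among 153 checks of list medians and of the Vehicle share, 99 stayed within the counting interval of the reported value, 54 lay outside it and none of the medians checked turned direction; the contractile median of AngII over Vehicle, not among them, turned as given above. No paired analysis was possible because each group is 1 library. Depth, 1 library a group, 59 cells and the smooth muscle and red cell transcripts in them limit the Vehicle values.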
